A study of Homo sapiens with 6 samples.

Results

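The genes described here encode the heat shock proteins of the HSP90, HSP70, HSP110, small HSP and mitochondrial HSP families and the J-domain proteins that work with HSP70. They were chosen by name: after identifiers were matched to symbols, every row was taken whose symbol begins with HSPA, HSPB, HSPD, HSPE or HSPH and a digit, with HSP90A, or with DNAJA, DNAJB or DNAJC and a digit. HSPA5, HSPA13, DNAJB9, DNAJB11, DNAJC3 and DNAJC10 were left out, since they act inside the endoplasmic reticulum (ER). The choice kept 50 of 11079 genes, and it used no measured value. They are not all cytosolic. By textbook location 8 members were placed in the mitochondria, among them HSPA9, HSPD1 and HSPE1. DNAJB12, DNAJB14 and DNAJC1 were placed in the ER membrane, and both lists may leave out members. In addition, 2 rows, HSPE1-MOB4 and DNAJC25-GNG10, are readthrough genes that overlap their parent genes.

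The study measured gene expression by RNA-seq in T24, an established human bladder cancer cell line. Cells carried a lentiviral control hairpin (shControl, genotype given as WT) or a hairpin against the long noncoding RNA BLACAT3 (shBLACAT3, given as BLACAT3 knockdown), with 3 libraries per group and 6 in all. Both groups were stable strains selected with puromycin and grown in RPMI 1640 with 10% fetal bovine serum at 37 °C and 5% CO2, and the labels name no heat or drug treatment. They do not say how many hairpin sequences or clones were used, nor whether the libraries of a group came from separate cultures. The p-values therefore reflect library-to-library spread that could be technical. Levels are in FPKM, a unit in which the fragments of a gene are divided by transcript length and by library size.

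Heat shock proteins bind unfolded or aggregation-prone proteins. HSP70 folds its clients in cycles of ATP hydrolysis that J-domain proteins start and that HSP110 proteins and other exchange factors reset, HSP90 takes over kinases and receptors near their native state, and small HSPs hold unfolded proteins without using ATP. Under stress the transcription factor HSF1 binds heat shock elements, inverted repeats of GAA, in the promoters of the inducible members. Tumour cell lines commonly express these genes at a high level without heat.

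The promoters show which members carry such letters. Windows from RefSeq (GRCh38.p14; 250 bases before to 50 after the start) were matched by symbol for 47 of the 50 members, and both strands were searched for GAANNTTC and TTCNNGAA, which each read the same on either strand and can overlap by a shared GAA or TTC. At least 1 of the pair was present in 9 of 47 member windows (19.1%), in 13.7% of all 27305 windows and in 9.83% of the windows of tested genes. A longer form, in which GAANNTTC and TTCNNGAA overlap by their shared TTC or GAA and so make 3 units, was present in 3 member windows (6.38%), those of HSPA8, DNAJB6 and DNAJA1, in 0.487% of all windows and in 0.292% of those of tested genes. The other 6 windows with a match were those of HSPA1A, HSPA1B, HSPA1L, HSPA9, HSPB1 and DNAJC15. A match is a description of letters and no proof of a binding site, and no match says only that the letters are not in this window. The 250 bases before the start are printed 5′ to 3′ with matches in capitals for 3 members with a match whose levels did not pass the test (HSPA8, DNAJB6 and HSPA1A), and for 2 members that passed it, 1 with a match (HSPB1) and 1 without (DNAJC5).
HSPA8, chr11:123062137-123062386, minus strand: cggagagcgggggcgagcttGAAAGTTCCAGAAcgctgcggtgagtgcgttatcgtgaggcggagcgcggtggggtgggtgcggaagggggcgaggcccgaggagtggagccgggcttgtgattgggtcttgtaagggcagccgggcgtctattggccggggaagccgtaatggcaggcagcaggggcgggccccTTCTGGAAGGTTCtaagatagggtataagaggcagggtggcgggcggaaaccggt
DNAJB6, chr7:157336754-157337003, plus strand: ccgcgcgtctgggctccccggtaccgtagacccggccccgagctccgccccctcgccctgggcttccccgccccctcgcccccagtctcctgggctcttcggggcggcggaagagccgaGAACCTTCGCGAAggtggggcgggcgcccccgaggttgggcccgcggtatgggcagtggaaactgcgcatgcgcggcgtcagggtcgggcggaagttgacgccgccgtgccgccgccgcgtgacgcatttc
HSPA1A, chr6:31815293-31815542, plus strand: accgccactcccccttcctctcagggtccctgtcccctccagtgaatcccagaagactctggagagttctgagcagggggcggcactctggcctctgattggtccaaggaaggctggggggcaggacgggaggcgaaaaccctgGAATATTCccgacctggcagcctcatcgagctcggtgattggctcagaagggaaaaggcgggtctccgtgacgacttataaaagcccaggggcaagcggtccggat
HSPB1, chr7:76302423-76302672, plus strand: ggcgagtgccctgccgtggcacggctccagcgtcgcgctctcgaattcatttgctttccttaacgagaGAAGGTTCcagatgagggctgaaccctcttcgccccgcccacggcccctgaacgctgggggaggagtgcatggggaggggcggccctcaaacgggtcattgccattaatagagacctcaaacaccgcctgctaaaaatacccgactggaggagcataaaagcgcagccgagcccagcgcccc
DNAJC5, chr20:63894876-63895125, plus strand: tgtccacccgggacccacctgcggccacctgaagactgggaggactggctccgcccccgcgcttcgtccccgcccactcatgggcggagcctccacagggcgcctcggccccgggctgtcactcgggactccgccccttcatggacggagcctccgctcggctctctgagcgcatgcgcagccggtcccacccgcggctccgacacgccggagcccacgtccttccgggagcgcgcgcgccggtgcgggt
HSPA8 carries 2 copies of the longer form, which begin 230 and 55 bases before the start of the gene. DNAJB6 carries 1, starting 131 bases before the start, while HSPA1A and HSPB1 each carry the short form alone, 106 and 182 bases before it.

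Most of these genes differed little between the groups. The test took genes whose mean over all libraries reached 1 FPKM, which 45 of the 50 members did. Of these 1 rose in shBLACAT3 cells, DNAJC5, and 3 fell, DNAJC12, HSPB1 and DNAJC18, at an adjusted p under 0.05 in limma. That is 8.89% of the tested members, where 9.37% of the 10008 tested genes passed; the higher share was 2.22% against 2.57%, and the lower share 6.67% against 6.8%. The share of called members therefore lay at the background, and no tested member reached a 2-fold change on the log2(FPKM + 1) scale, which understates changes of low genes. The median log2 fold change was 0.03 over the tested members and -0.0025 over all tested genes, and the median size without sign was 0.13 and 0.15. An unadjusted p under 0.05 was found for 9 tested members. The groups did not overlap in 14 of the 45 (31.1%), 9 higher and 5 lower, where 32.8% of all tested genes did not overlap, 14.1% higher and 18.6% lower. These counts depend on single libraries. In limma, without shControl replicate 1, 2 or 3 or shBLACAT3 replicate 1, 0 members passed as lower. Of all tested genes 276, 317, 331 and 456 did so in these settings, beside 681 with every library kept. Without shBLACAT3 replicate 2 there were 3 lower members, DNAJC12, HSPB1 and HSPE1-MOB4, beside 536 of all tested genes. Without replicate 3 there were 2, DNAJC12 and HSPB1, beside 753. In each case but the last 1 member was higher, DNAJC5. Without shBLACAT3 replicate 3 DNAJB14, DNAJC13, DNAJC2 and DNAJC5 were higher. In that setting 586 of all tested genes were called higher, beside 257 with every library kept.

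**Figure D1:**
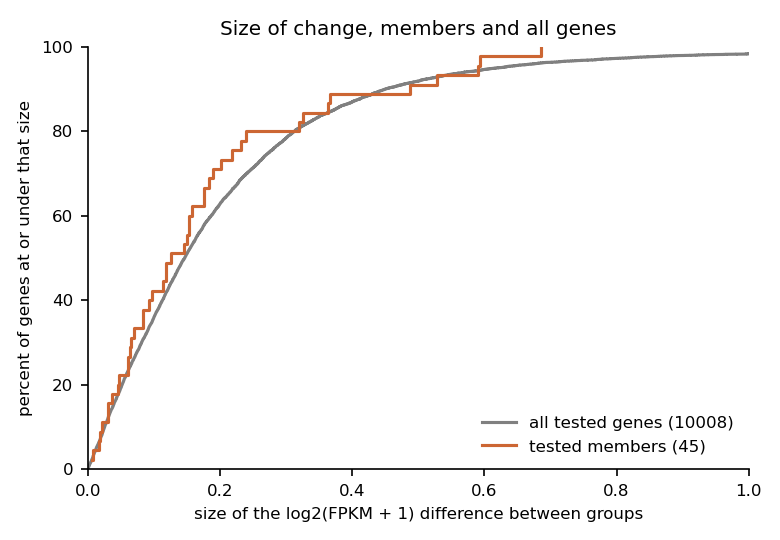
Size of the difference between groups in log2(FPKM + 1) without its sign (x axis) against the percent of genes at or under that size (y axis), for the 45 tested members (orange) and the 10008 tested genes (grey), shown up to a size of 1. The curves run close together, with medians of 0.13 and 0.15.

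The members together made up 2726, 2591 and 2702 FPKM in the shControl libraries and 2620, 2664 and 2671 in the shBLACAT3 libraries. These sums were 1.17% to 1.24% of all listed FPKM in a library, and the groups overlapped. By mean level the order was HSP90AB1, HSP90AA1, HSPA8, DNAJA1, HSPD1, HSPA9, HSPB1, HSPA1A and HSPA1B in shControl cells. It was the same in shBLACAT3 cells except that HSPD1 (202 ± 21.1 FPKM, SD, n = 3) and DNAJA1 (201 ± 4.83) stood within their spread of each other in the reverse order. HSPA1A and HSPA1B also did not differ beyond their spread in either group. FPKM is per length, so these levels can be set beside each other.

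**Figure D2:**
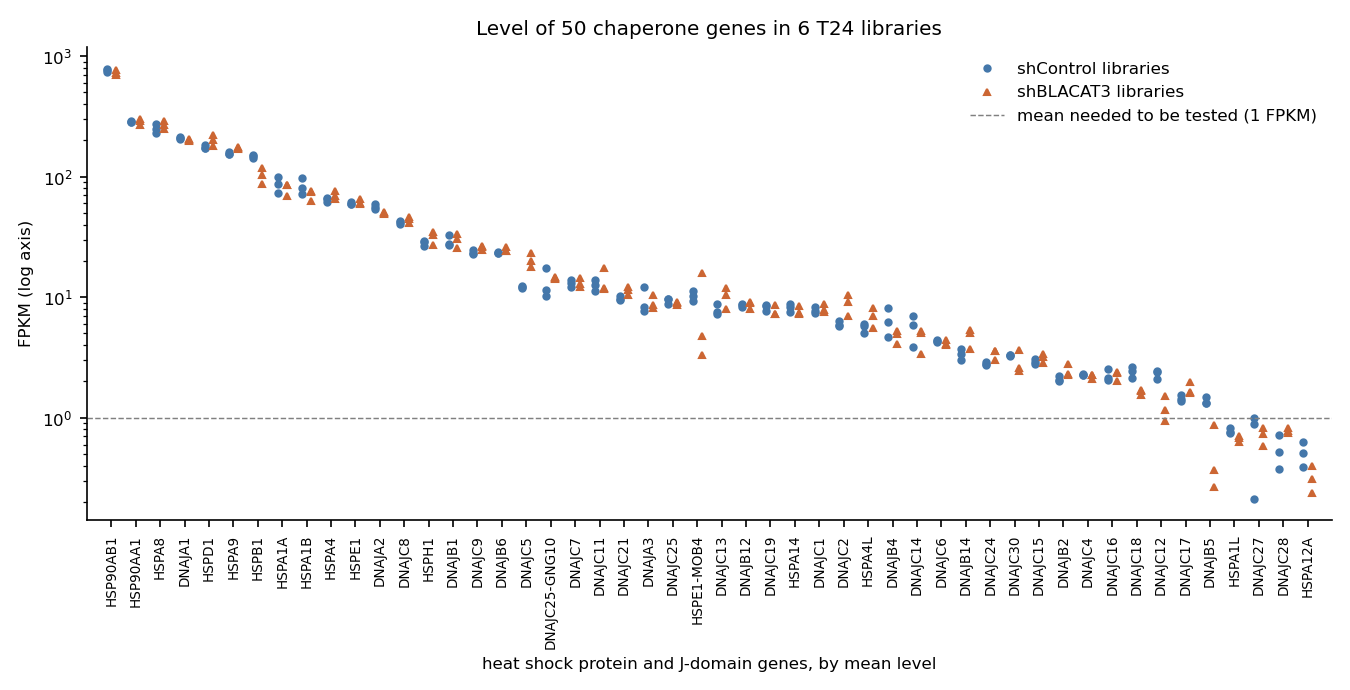
FPKM of each of the 50 members (y axis, log scale) in the 3 shControl libraries (blue circles) and the 3 shBLACAT3 libraries (orange triangles), ordered by mean level on the x axis; the dashed line marks the mean of 1 FPKM needed to be tested. Levels run from HSP90AB1, at 698 to 789 FPKM, down to HSPA12A, at 0.237 to 0.631 FPKM, and for most genes circles and triangles share a range.

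The HSP90 pair did not pass. HSP90AB1, the constitutive cytosolic HSP90, stood at 763, 736 and 789 FPKM in shControl and at 698, 728 and 763 in shBLACAT3 libraries. Its log2 difference was -0.06, with a 95% interval of -0.21 to 0.08 (limma adjusted p 0.546). HSP90AA1, the stress-responsive form, stood at 285 to 292 FPKM in shControl and 269 to 301 in shBLACAT3 libraries, with a log2 difference of -0.01 and an interval of -0.15 to 0.14 (adjusted p 0.963). The groups overlapped in both genes.

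Among the HSP70 genes 0 of 4 tested passed in limma, with 0 at an unadjusted p under 0.05. HSPA8, the constitutive HSP70 of the cytosol (HSC70), stood at 271, 231 and 246 FPKM in shControl and at 251, 291 and 268 in shBLACAT3 libraries, with a log2 difference of 0.11 (95% interval -0.09 to 0.31). HSPA1A, one of the near-identical heat-inducible HSP70 genes, stood at 100.1, 73.6 and 86.5 FPKM and at 85.0, 69.1 and 84.7. HSPA1B, its copy, stood at 97.8, 71.4 and 79.9 FPKM and at 75.6, 62.2 and 74.9. For these inducible genes the spread within shControl was wider than the distance between the means, and replicate 2 was the lowest library of both groups. Reads of HSPA1A and HSPA1B can hardly be split, so their single values are uncertain; their sum was 170 ± 26.6 FPKM in shControl and 151 ± 16.6 in shBLACAT3 cells (SD, n = 3). Their log2 differences were -0.12 (interval -0.43 to 0.20) and -0.22 (interval -0.53 to 0.10). HSPA14, a ribosome-associated HSP70 relative, had a log2 difference of -0.08 (interval -0.29 to 0.13). HSPA1L and HSPA12A (0.237 to 0.631 FPKM over the libraries) were too low to be tested. HSPA1L stood at 0.754 to 0.828 FPKM in shControl and 0.634 to 0.712 in shBLACAT3 libraries, without overlap.

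The HSP110 genes, which exchange the nucleotide of HSP70, had a higher mean in shBLACAT3 cells in 3 of 3 cases, and 0 of 3 passed in limma (0 at an unadjusted p under 0.05). HSPA4 stood at 65.1, 66.9 and 61.2 FPKM in shControl and at 69.0, 75.3 and 65.8 in shBLACAT3 libraries, a log2 difference of 0.12 (95% interval -0.05 to 0.28, limma adjusted p 0.338). HSPH1, the stress-inducible HSP110, stood at 29.2, 28.8 and 26.4 FPKM and at 32.7, 34.4 and 27.2, a difference of 0.15 (interval -0.08 to 0.38, adjusted p 0.385). The ranges of both genes overlapped, with shBLACAT3 replicate 3 among the shControl libraries. HSPA4L had a log2 difference of 0.24 (interval -0.09 to 0.57).

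**Figure D3:**
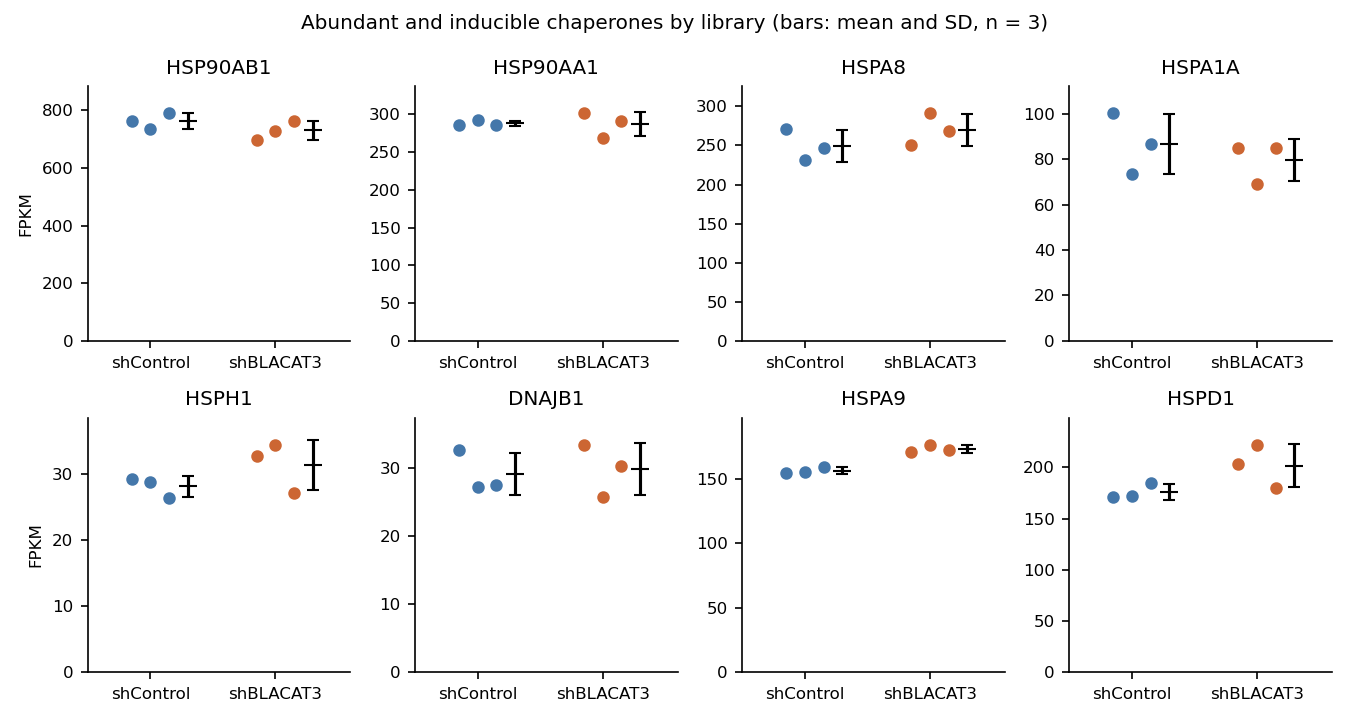
FPKM (y axis, from 0) of 8 abundant or inducible chaperone genes in the 3 shControl (blue) and 3 shBLACAT3 (orange) libraries, in order of replicate number; black bars give the mean and SD (n = 3). HSPA9 alone of the 8 has groups that do not overlap (155 to 159 and 170 to 176 FPKM), and it did not pass the test.

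HSPB1 (HSP27), a small HSP that binds unfolded proteins and actin filaments, fell. It stood at 148, 143 and 152 FPKM in shControl and at 103, 86.5 and 118 in shBLACAT3 libraries, so every shBLACAT3 library lay under every shControl library. The mean went from 147 ± 4.58 to 103 ± 16.0 FPKM (SD, n = 3), or 69.7% of the control, a log2 fold change of -0.53 (SE 0.11, limma adjusted p 0.0342). The call was lost without shControl replicate 1, 2 or 3 (adjusted p 0.123, 0.0953 and 0.120), without shBLACAT3 replicate 1 (0.0928), and with the libraries scaled to a common median (0.0527). HSPB1 was the only small HSP among the members. CRYAB, a lens and muscle small HSP outside the naming rule, was too low to be tested, at 1.31, 1.06 and 1.26 FPKM in shControl and 0.0755, 0.082 and 0.128 in shBLACAT3 libraries. With no filter on low values the log2 difference of CRYAB was -1.01. Its shBLACAT3 mean, 0.0952 FPKM, lay under the 0.501 FPKM that each row reached in its higher group mean. CRYAB was thus listed through its shControl level alone, and a p-value for it would be no support. It stood in a list of heat shock response genes, and it was singled out after its values were seen.

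The mitochondrial chaperones had higher means in shBLACAT3 cells in 3 of 3 cases, and 0 passed in limma (1 at an unadjusted p under 0.05). HSPA9 (mortalin), the HSP70 of the matrix and of protein import, stood at 155, 155 and 159 FPKM in shControl and at 170, 176 and 172 in shBLACAT3 libraries. These groups did not overlap, but the log2 difference of 0.15 (SE 0.05, 95% interval 0.03 to 0.26) had an adjusted p of 0.118. HSPD1 and HSPE1, the HSP60 chaperonin and its lid, share a promoter region between their divergent genes. HSPD1 stood at 171, 172 and 185 FPKM and at 203, 222 and 180, a difference of 0.19 (interval -0.02 to 0.40), and HSPE1 at 59.2 to 62.0 and 59.5 to 65.0, a difference of 0.04 (interval -0.10 to 0.17). HSPE1-MOB4, the readthrough row, stood at 10.2, 9.34 and 11.2 FPKM in shControl and at 3.32, 15.7 and 4.73 in shBLACAT3 libraries. Its fragments are shared with HSPE1, and 1 library decides its value: the log2 difference was -0.59 (limma adjusted p 0.471), and without shBLACAT3 replicate 2 it was -1.17 (0.0126). The sum of both rows was 70.5 ± 0.998 and 69.8 ± 6.94 FPKM (SD, n = 3). The 8 members placed in mitochondria include the J-domain genes DNAJA3, DNAJC11, DNAJC15, DNAJC19 and DNAJC30. Of these 8, limma called 0 (1 at an unadjusted p under 0.05, HSPA9), and each 95% interval lay within -0.5 and 0.5.

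The J-domain proteins carry the tripeptide motif that starts ATP hydrolysis by HSP70. Of 33 such members 30 were tested and 3 were called, a share near the 9.37% of all tested genes. These 3 were in class C, which with 21 genes is also the largest class tested and whose members share little beyond the J domain. In class A, the general co-chaperones close to bacterial DnaJ, 0 of 3 passed in limma (1 at an unadjusted p under 0.05, DNAJA2) and 3 of 3 had a lower mean. DNAJA1 stood at 213, 207 and 209 FPKM in shControl and 196, 206 and 201 in shBLACAT3 libraries, a log2 difference of -0.06 (95% interval -0.18 to 0.06, adjusted p 0.483). DNAJA2 stood at 55.6, 54.3 and 59.5 FPKM and at 49.1, 50.7 and 49.8, a difference of -0.18 (interval -0.31 to -0.04, adjusted p 0.114). In both genes every shBLACAT3 library lay under every shControl library. DNAJA3, the mitochondrial class A protein, had a difference of -0.02 (interval -0.42 to 0.39).

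In class B 0 of the 6 tested members passed in limma, with 1 at an unadjusted p under 0.05 (DNAJB14). DNAJB1, the stress-inducible HSP40, stood at 32.7, 27.2 and 27.6 FPKM in shControl and at 33.5, 25.8 and 30.4 in shBLACAT3 libraries, a log2 difference of 0.03 (95% interval -0.25 to 0.31, adjusted p 0.899). Its groups covered nearly the same range. DNAJB6, which keeps polyglutamine proteins from aggregating, stood at 23.0 to 23.6 and at 24.1 to 25.9 FPKM, a difference of 0.08 (interval -0.05 to 0.22, adjusted p 0.404). DNAJB14, an ER membrane protein whose J domain faces the cytosol, stood at 3.41, 3.71 and 3.03 FPKM and at 5.01, 5.34 and 3.71, a difference of 0.37 (SE 0.13, adjusted p 0.146, and 0.0318 without shBLACAT3 replicate 3). DNAJB5, a relative of DNAJB1, had too low a mean to be tested, at 1.33, 1.34 and 1.48 FPKM in shControl and 0.876, 0.367 and 0.269 in shBLACAT3 libraries. Its groups did not overlap, and with no filter it passed (log2 fold change -0.69, limma adjusted p 0.0335). With 1 library left out it was tested in 2 settings and passed in 0 (limma adjusted p 0.0614 and 0.0971). The shBLACAT3 mean of DNAJB5, 0.504 FPKM, lay barely above the 0.501 FPKM that each row reached in its higher group mean. Its p-value with no filter is therefore not taken as support.

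**Figure D4:**
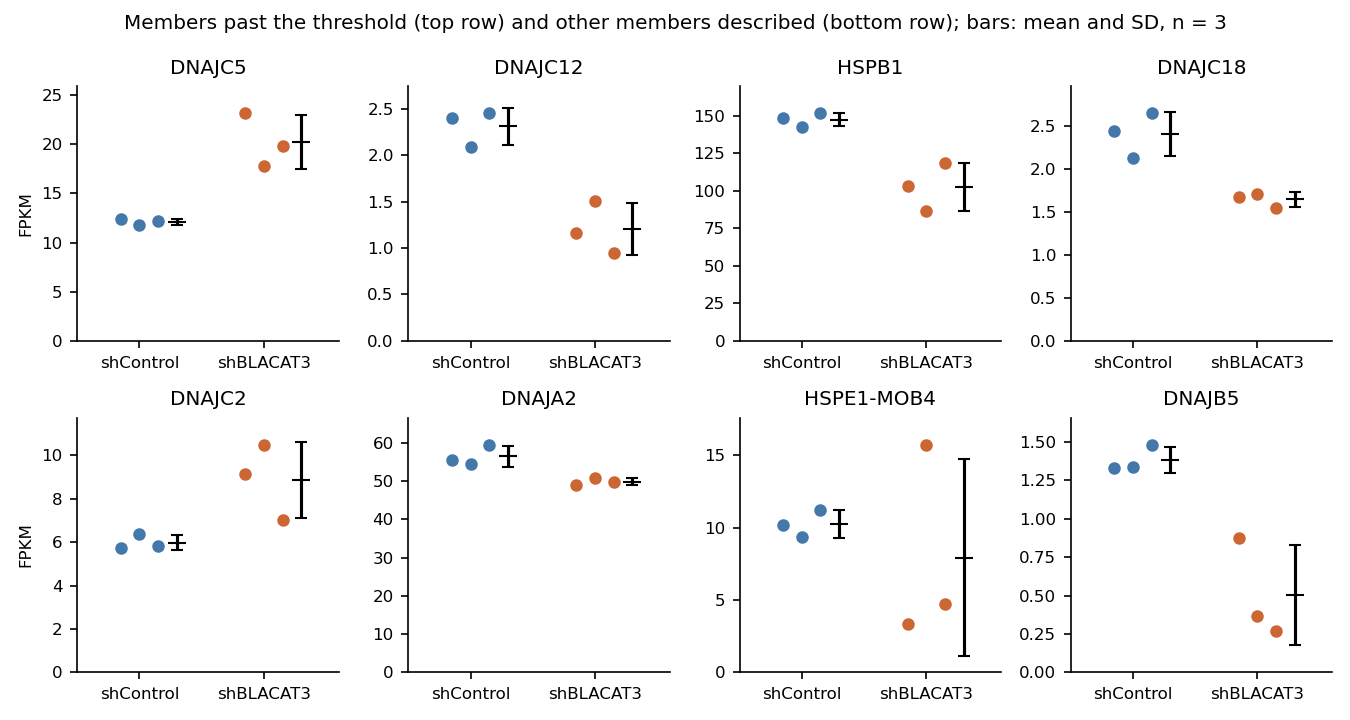
FPKM (y axis, from 0) of the 4 members past the threshold (top row: DNAJC5, DNAJC12, HSPB1, DNAJC18) and of DNAJC2, DNAJA2, HSPE1-MOB4 and DNAJB5 (bottom row) in the 3 shControl (blue) and 3 shBLACAT3 (orange) libraries; black bars give the mean and SD (n = 3). In the top row no library of one group reaches the range of the other, and HSPE1-MOB4 has 1 shBLACAT3 library at 15.7 FPKM beside 3.32 and 4.73.

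DNAJC5 (cysteine string protein), a palmitoylated co-chaperone of secretory and synaptic vesicles that also exports misfolded proteins, rose. It stood at 12.4, 11.8 and 12.2 FPKM in shControl and at 23.2, 17.8 and 19.8 in shBLACAT3 libraries, with each shBLACAT3 library above every shControl library. The mean was 12.1 ± 0.311 and 20.2 ± 2.71 FPKM (SD, n = 3), a log2 fold change of 0.69 (SE 0.10, limma adjusted p 0.00899). DNAJC5 was the only member whose call was kept whichever 1 library was left out, with an adjusted p of 0.00773 to 0.0459. It also passed under each other setting tried.

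DNAJC12, a co-chaperone of the aromatic amino acid hydroxylases, fell. It stood at 2.40, 2.08 and 2.45 FPKM in shControl and at 1.16, 1.5 and 0.946 in shBLACAT3 libraries, a log2 fold change of -0.59 (SE 0.11, limma adjusted p 0.0245). The mean was 2.31 ± 0.197 and 1.2 ± 0.28 FPKM (SD, n = 3), and the groups did not overlap. The call was lost without shControl replicate 1, 2 or 3 (adjusted p 0.10, 0.0601 and 0.0927) or shBLACAT3 replicate 1 (0.0762). DNAJC18, a membrane-anchored J-domain protein, fell from 2.41 ± 0.26 to 1.65 ± 0.0838 FPKM (SD, n = 3), with 2.45, 2.14 and 2.65 FPKM against 1.68, 1.71 and 1.55. Its log2 fold change of -0.36 (SE 0.09) had a limma adjusted p of 0.0496, at the edge of the threshold, and the call was lost whichever library was left out (adjusted p 0.0759 to 0.168), with a pseudocount of 0.1 (0.0526), with median scaling (0.0503) and with quantile normalization (0.0975). Both genes lie near the lowest levels tested, where the scale understates the change.

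Among the other class C members the closest to the threshold was DNAJC2 (zuotin, MPP11), which sits at the ribosome and hands nascent chains to HSP70. It stood at 5.73, 6.37 and 5.82 FPKM in shControl and at 9.14, 10.5 and 7.01 in shBLACAT3 libraries, and the groups did not overlap. Its log2 difference of 0.49 (SE 0.14) had a limma adjusted p of 0.0804, and of 0.0147 without shBLACAT3 replicate 3. DNAJC13 (RME-8), which acts on clathrin at endosomes, stood at 7.24, 8.73 and 7.52 and at 10.4, 11.9 and 8.04 FPKM, a difference of 0.32 (adjusted p 0.218, and 0.0480 without shBLACAT3 replicate 3). DNAJC9, a chaperone of histones H3 and H4, stood at 22.7 to 24.5 and 24.6 to 26.8 FPKM, a difference of 0.13 (95% interval -0.02 to 0.27, adjusted p 0.254). Groups also did not overlap, all with a higher mean in shBLACAT3 cells, for DNAJC17, a splicing-related protein, DNAJC21, of 60S ribosome assembly, and DNAJC24, of diphthamide synthesis, at log2 differences of 0.15, 0.18 and 0.20. Values of DNAJC7, the co-chaperone that also binds HSP90, and DNAJC8, of the spliceosome, lay at differences of 0.02 and 0.07. DNAJC14 spread widely within each group, at 3.89 to 6.98 and 3.36 to 5.21 FPKM. DNAJC25-GNG10 varied from 10.3 to 17.4 FPKM within shControl, and its fragments cannot be cleanly told from those of DNAJC25.

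The remaining tested J-domain members did not pass either. In class B, DNAJB4, a relative of DNAJB1, stood at 4.64 to 8.16 FPKM in shControl and 4.10 to 5.28 in shBLACAT3 libraries, a log2 difference of -0.33 (95% interval -0.76 to 0.11). DNAJB2, a chaperone of ubiquitinated proteins in neurons, stood at 2.02 to 2.23 and 2.26 to 2.80 FPKM without overlap, a difference of 0.15 (limma adjusted p 0.339), and DNAJB12, the ER membrane relative of DNAJB14, had one of 0.02. Among mitochondrial J-domain genes, DNAJC30 had a difference of -0.16 (interval -0.46 to 0.14), DNAJC19, of the import motor, one of -0.09, DNAJC15 one of 0.07 and DNAJC11, of the cristae junction complex, one of 0.10. The last of these was set apart by shBLACAT3 replicate 1, at 17.5 FPKM beside 11.9 and 11.7. DNAJC1, DNAJC4, DNAJC6 (auxilin, which uncoats clathrin vesicles), DNAJC16 and DNAJC25 had differences of 0.05, -0.03, -0.05, 0.01 and -0.06. DNAJC27, at 0.214 to 1.0 FPKM over the libraries, and DNAJC28 were too low to be tested. DNAJC28 stood at 0.377 to 0.725 FPKM in shControl and 0.743 to 0.816 in shBLACAT3 libraries, without overlap.

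**Figure D5:**
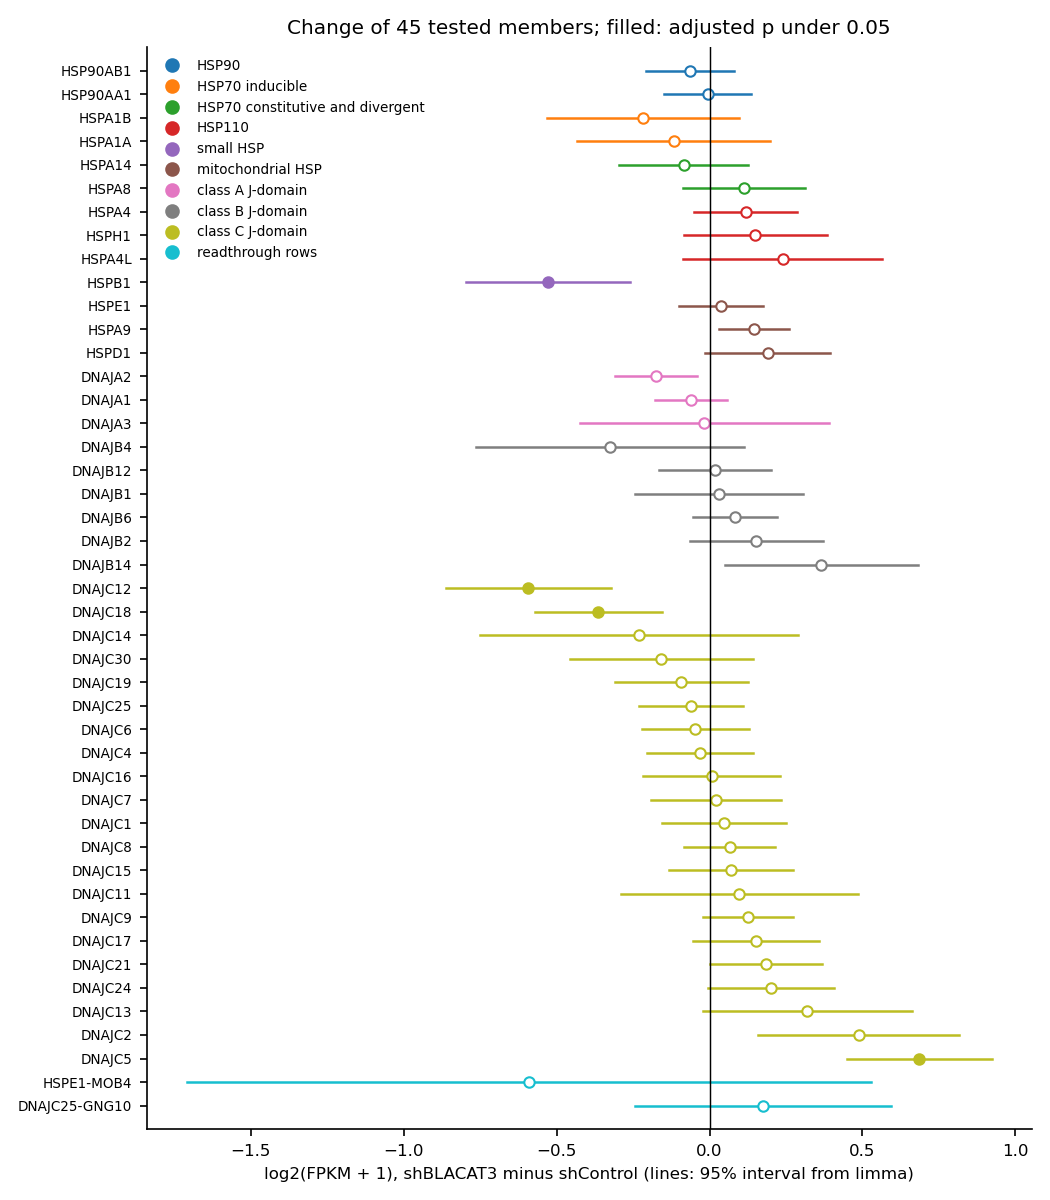
Difference in log2(FPKM + 1), shBLACAT3 minus shControl (x axis), of the 45 tested members by family (colours), with lines for the 95% interval from limma; filled circles passed an adjusted p under 0.05. The 4 filled circles are HSPB1, DNAJC12, DNAJC18 and DNAJC5, and in 32 of the 45 genes the interval lies within -0.5 and 0.5.

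The promoter letters printed above can be set beside the calls. Of the 8 tested members whose window held GAANNTTC or TTCNNGAA, 1 passed, HSPB1, which is near the 9.37% called among all tested genes. DNAJC5, DNAJC12 and DNAJC18 had no match in their windows. The log2 differences of the 3 genes with the longer form were 0.11 (HSPA8), 0.08 (DNAJB6) and -0.06 (DNAJA1), and none of these passed.

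The partners of these chaperones were read from lists of genes that are not members. Of 47 tested partners 1 rose and 4 fell in limma, beside 9.37% called among all tested genes. Among the heat shock factors and their binding protein 0 of 3 passed in limma, with 1 at an unadjusted p under 0.05, HSBP1. HSF1, the factor that induces the heat shock genes, stood at 10.0, 8.88 and 8.06 FPKM in shControl and at 10.3, 6.69 and 7.48 in shBLACAT3 libraries, a log2 difference of -0.14 (95% interval -0.51 to 0.23, adjusted p 0.609). HSF2 had a difference of 0.14 (adjusted p 0.408) and HSBP1, which binds HSF1, one of -0.17 (adjusted p 0.167).

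Of 16 HSP90 cochaperones 2 fell and 1 rose, where 6.8% of all tested genes were called lower and 2.57% higher. FKBP4 (FKBP52), a prolyl isomerase of steroid receptor complexes, went from 40.6 ± 0.198 to 34.1 ± 1.74 FPKM (SD, n = 3), with a log2 fold change of -0.24 (limma adjusted p 0.0490). FKBP5 (FKBP51), its glucocorticoid-induced counterpart, went from 13.4 ± 0.697 to 10.4 ± 0.796 FPKM, with -0.34 (adjusted p 0.0453). CHORDC1, a zinc-binding HSP90 partner, went from 4.61 ± 0.461 to 7.20 ± 1.25 FPKM, with 0.54 (adjusted p 0.0493). These 3 calls lie close to the threshold, and leaving out 1 library ended each of them in 5 of 6 cases (adjusted p 0.0709 to 0.169). FKBP4 and CHORDC1 kept theirs without shBLACAT3 replicate 3 only, and FKBP5 without shBLACAT3 replicate 2 only. FKBP4 also lost its call with a pseudocount of 0.1 (limma adjusted p 0.0514), median scaling (0.0955), quantile normalization (0.0656) and no trend (0.0775). CHORDC1 and FKBP5 kept theirs in those settings.

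Of 11 HSP70 exchange factors and cochaperones 0 passed in limma, with 2 at an unadjusted p under 0.05. BAG2, which holds back the ubiquitin ligase CHIP, stood at 11.8 ± 0.507 and 14.1 ± 0.555 FPKM (SD, n = 3; adjusted p 0.0805), and GRPEL1, the exchange factor of HSPA9, at 16.4 ± 0.465 and 14.5 ± 0.514 (adjusted p 0.139). Of the 8 subunits of the TRiC chaperonin, which folds actin and tubulin, 7 had a higher mean and 0 passed in limma (2 at an unadjusted p under 0.05): CCT5 had a difference of 0.15 and TCP1 one of 0.32 (adjusted p 0.146 and 0.166). Prefoldin delivers actin and tubulin to TRiC. Limma called 0 of its 6 subunits (1 at an unadjusted p under 0.05), and VBP1 had a difference of 0.20 (adjusted p 0.109). PFDN2 had a difference of 0.17 (adjusted p 0.275).

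From a list of other heat shock response genes, ZFAND2A fell. ZFAND2A (AIRAP), an arsenite- and heat-inducible partner of the proteasome, went from 3.66 ± 0.600 to 1.97 ± 0.127 FPKM (SD, n = 3), with a log2 fold change of -0.64 (limma adjusted p 0.0165, and 0.0591 without shControl replicate 3). UBB, a polyubiquitin gene, stood at 148 to 152 and 130 to 147 FPKM, with a difference of -0.14 (adjusted p 0.220).

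The relatives that act in the ER lumen or its membrane, 9 genes, had a median log2 difference of -0.29, beside 0.03 for the tested members; the difference between the lists was not tested. Of these 9 genes 2 fell, where 6.8% of all tested genes did: HSPA5 (BiP), with a log2 fold change of -0.53, and DNAJB9 (ERdj4), the J-domain partner of BiP, from 8.07 ± 0.403 to 5.47 ± 0.677 FPKM (SD, n = 3; limma adjusted p 0.0285, and 0.0546 to 0.119 without shControl replicate 1, 2 or 3 or shBLACAT3 replicate 1). Limma called 0 of the 3 mitochondrial relatives TRAP1, HSCB and CLPB (1 at an unadjusted p under 0.05). HSCB, a J-domain protein of iron-sulfur cluster assembly, stood at 5.40 ± 0.575 and 3.44 ± 0.797 FPKM (SD, n = 3; adjusted p 0.0758, and 0.0363 without shBLACAT3 replicate 3), and TRAP1, the mitochondrial HSP90, had a difference of 0.04 (adjusted p 0.776).

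Some facts of the libraries stand beside these results. The listed FPKM summed to 211958 to 226953 per library, 17 to 19 genes were listed at 0 in a shControl library and 43 to 65 in a shBLACAT3 library, and read depth is unknown because FPKM holds no counts. The count of called genes moved from 938 to between 357 and 1339 when 1 library was left out, the highest without shBLACAT3 replicate 3. Of 17 urothelial and epithelial markers 5 were analysed here (KRT7, KRT8, KRT18, PPARG and FOXA1), and they summed to 180 to 211 FPKM in shControl and 124 to 142 in shBLACAT3 libraries. The list was mixed: KRT8 and KRT18 fell (to 36.4% and 66.3% of the control mean) and FOXA1 stood at 74.1% of it, while KRT7 stood at 160% and PPARG at 125%, and the latter 3 did not pass. The defining uroplakins were not analysed here. Of 6 leukocyte markers only CD68 was analysed, at 0.686 to 1.21 and 0.00379 to 0.624 FPKM, and of 4 endothelial markers 0 were. The part of these marker levels in the chaperone results was not tested. In bulk RNA of a cell line, fewer cells that express a gene and less RNA per cell cannot be told apart. The target of the hairpin was not analysed here, so its level does not check the labels.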

How the data were processed

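Total RNA of T24 cells (3 libraries per group) was sequenced with a stranded kit, per the labels' protocols. The submitters' processing notes name cutadapt, HISAT2 2.1.0 and StringTie without saying what each did. The genome build, the annotation and the strand setting were not stated in the sources used here. The header of the deposited table gives no unit; its values were taken to be the authors' FPKM because they are not whole, sum to unequal totals and come with StringTie. Columns marked NC are treated as shControl and those marked SH as shBLACAT3, with their number as replicate. Of 11081 rows 11007 were matched to a current symbol, and rows of 2 shared symbols were summed, which left 11079 genes. Each row reached at least 0.501 FPKM in the higher group mean, so lower genes were not analysed here.

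The 10008 genes that averaged 1 FPKM or more were tested in limma 3.58.1 (R 4.3.3) after log2(FPKM + 1): group as the only term, mean-variance trend, two-sided p, Benjamini-Hochberg adjustment over all tested genes, threshold 0.05. The 95% intervals are not adjusted for the number of genes. The test was checked on simulated data. The members, families and partner lists were chosen with earlier results of these data known. Named were all members past the threshold, the 3 next by p, 16 fixed members, HSF1, and from each partner list up to 4 that passed or the 2 with the smallest p; the other genes were named after their values were seen. Some genes taken by this rule are not reported here. The other settings were a pseudocount of 0.1, a filter at 0.1 or none, the replicate number as a block, median scaling, quantile normalization, no trend, array weights, and each library left out. No group is large enough for a test of outlying libraries. Figures were drawn with matplotlib 3.10.9.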

Additional observations from a re-analysis of the deposited data

How the results depend on the processing

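Each result was recomputed under 14 other settings. The number of all called genes, 938, was 612 with the replicate number as a block and 357 to 1339 with 1 library left out. Under the remaining settings it was 879 to 1186. Members higher, 1, were 2 with array weights and 1 to 4 with a library left out. Members lower, 3, were 1 with the replicate block and 1 with median scaling, and 0 to 3 with a library left out. They were 2 with a pseudocount of 0.1 or quantile normalization, and 4 with a filter at 0.1 or none. Over all tested genes the lower calls, 681, were 451 with the block, 626 with median scaling and 276 to 753 with a library left out. These lower calls were 658 with a pseudocount of 0.1, 592 with quantile normalization and 895 with a filter at 0.1 or none. The higher calls, 257, were 365 with array weights and 81 to 586 with a library left out. The median over tested members, 0.03, was -0.0119 to 0.0441 with a library left out. Members whose groups did not overlap, 14 of 45, were 16 to 25 with a library left out and 17 of 50 with no filter. With fewer libraries the groups of any gene separate more readily. The share over all genes was not computed for these settings, so these counts say nothing particular about the members. The called HSP90 cochaperones, 3, were 1 with the block and 0 to 3 without a library. They were 2 with a pseudocount of 0.1, median scaling, quantile normalization or no trend. The other heat shock response genes, 2, were 1 with the block, 1 with median scaling, 3 with a filter at 0.1 or none and 0 to 3 without a library. The ER relatives, 2, were 1 with the block and 1 to 2 without a library, and the mitochondrial relatives, 0, were 1 with array weights and 0 to 1 without a library. The causes were not tested.

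The same replicate numbers deviated together only weakly over 10008 genes (r = 0.10, 0.117 and 0.0896), though each library correlated best with its own number. Under the block DNAJC5 and HSPB1 kept their calls and DNAJC12 (adjusted p 0.076) and DNAJC18 (0.102) did not. Among the partners and relatives named, ZFAND2A (0.058), DNAJB9 (0.0503), FKBP4 (0.0872) and FKBP5 (0.0802) also lost their calls under the block, and CHORDC1 (0.0468) and HSPA5 (0.0136) kept theirs.

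The sign turned for named genes far from the threshold: HSP90AA1 with median scaling (0.000571), quantile normalization (0.0186), array weights (0.0203) and with a library left out (-0.0415 to 0.0397), DNAJB1 (-0.0527 to 0.129) and TRAP1 (-0.0104 to 0.108) with a library left out. With no filter 4 of 50 members were lower, beside 895 of all 11079 genes. Without counts, the depth behind each value is unknown.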

Other observations

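HSPA1A, HSPA1B, DNAJB1 and the HSP70 partner BAG3, which links HSP70 to autophagy, each had their lowest value in replicate 2 of both groups. BAG3 stood at 29.4, 25.0 and 25.3 FPKM in shControl and at 23.2, 20.8 and 26.2 in shBLACAT3 replicates 1, 2 and 3. HSPB1 (143 and 86.5 FPKM) was also lowest in replicate 2 of both groups, while HSPA8 was lowest there in shControl (231) and highest in shBLACAT3 (291). Other members went the opposite way. HSPA4 (66.9 and 75.3 FPKM), HSPA4L, DNAJB14, DNAJC2, DNAJC13 and DNAJC21 were highest in replicate 2 of both groups. These genes were picked after their values were seen, and the share over all genes was not counted.

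CACYBP, an HSP90 cochaperone gene, stood at 43.4, 72.4 and 47.8 FPKM in shControl and at 48.1, 68.7 and 48.3 in shBLACAT3 replicates 1, 2 and 3, so that replicate 2 was the highest library of each group.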
